A study of Rattus norvegicus with 8 samples.

Results

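The expression profile of FRTL-5 cells kept in thyrotropin (TSH) without added iodide was read from 2 of the 8 arrays of the series, both of the group with the wild type TSH receptor and sodium chloride. FRTL-5 is an established line of rat thyroid follicular cells, and the cells used were its sub-clone SB5 with stable expression of the human wild type receptor. They received 1 mM sodium chloride, the osmotic control for iodide, and no iodide, and like all cells of the series they grew with 5 mU/ml bovine TSH. The other 3 groups of 2 arrays, with iodide or with the L629F receptor, were used here to see whether a gene kept its place, and no group was compared with another. The labels give neither the time in chloride nor whether the arrays of a group came from separate cultures, and each receptor is represented by 1 line, so the spread between the arrays may be technical. The 31042 probe sets that are not array controls, of 31099 deposited, were ranked by their mean signal over both arrays, and no test was made.

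Thyroid follicular cells take up iodide through the sodium/iodide symporter, oxidise it with hydrogen peroxide made at the apical membrane, and attach it to tyrosines of thyroglobulin, a very large glycoprotein that is folded in the endoplasmic reticulum and secreted into the follicle lumen. TSH acts through its receptor, the stimulatory G protein and cyclic AMP, and drives iodide uptake, thyroglobulin synthesis and, in this line, cell division. A small set of transcription factors that occur together in few tissues, NKX2-1, PAX8, FOXE1 and HHEX, defines the cell type.

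Signals are the deposited MAS5 intensities on a linear scale, where MAS5 is the Affymetrix method that turns the probes of a set into 1 value. The strong band was the highest 10% of probe sets, with means of 1679 or more, and the near-background band was the lowest 40%, with means under 68.98. The moderate band lay between. A gene was read by the brightest of its probe sets that carry 1 gene symbol, which gave 14217 genes. Pairs of values are the signals on array 1 and array 2. Of these, 2419 (17%) were strong, 7571 (53.3%) moderate and 4227 (29.7%) near background, and these shares are the background for every list of genes described. A probe set's signal depends on its own probes as well as on the amount of RNA, so the bands are coarse classes and the order of genes within a band carries no meaning about RNA amounts. Near background says only that the probe set gave little signal, not that the gene is silent.

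**Figure D1:**
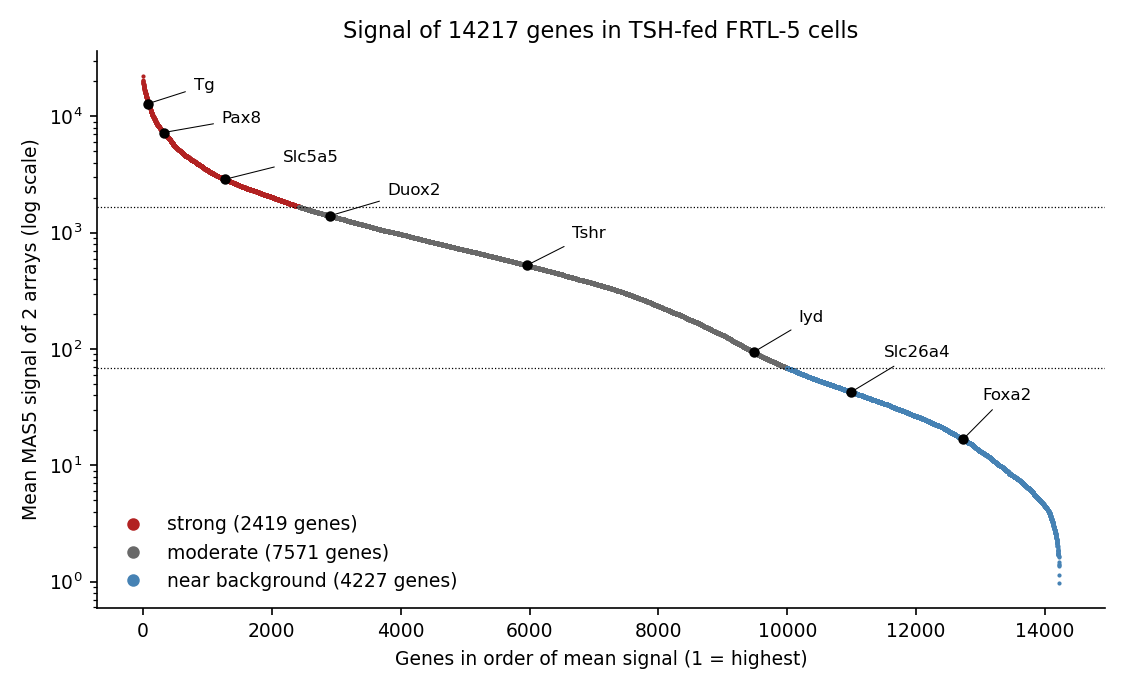
Mean signal of both arrays (log scale) against the place of each of 14217 genes in the order of signal, coloured by band, with dotted lines at the lowest strong and lowest moderate mean and 8 thyroid genes named. The curve falls from 22232 for Rps29 to values near 1, and thyroid genes lie in all 3 bands.

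The bands could be set beside controls on the array. The 27 probe sets for the bacterial genes dap, lys, phe, thr and trp gave signals of 1.00 to 70.3, and 53 of their 54 values lay under the edge of the moderate band. The hybridisation controls rose in their known order, from 299 to 656 for bioB up to 13197 to 21238 for cre. The ratio of 3′ to 5′ signal, a measure of how complete the labelled transcripts are, was 1.22 on array 1 and 1.55 on array 2 for GAPDH and 2.23 and 5.05 for beta-actin. For hexokinase, of much lower signal, it was 4.01 and 3.11. It was thus higher on array 2 for GAPDH and beta-actin and lower for hexokinase, and its part in the signals was not tested.

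The arrays resembled each other closely where signals were high and poorly where they were low. In the strong band the median probe set differed 1.10-fold between the arrays and 9 in every 10 differed by less than 1.27-fold. In the moderate band the same values were 1.19-fold and 1.71-fold, and near background 2.10-fold and 7.89-fold. Across all ranked probe sets Pearson's r of the log2 signals was 0.92, a correlation across probe sets of 2 arrays and not across replicates of a condition. Of the 2419 strong genes, 2271 (93.9%) were strong on each array taken alone, as 3749 of the 4227 near-background genes (88.7%) were near background on each.

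**Figure D2:**
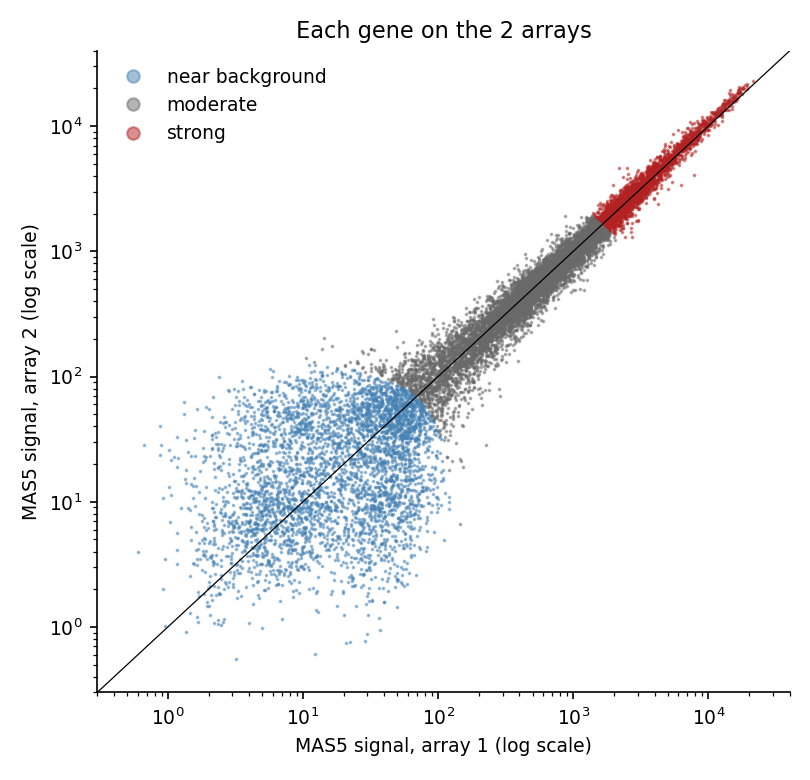
MAS5 signal of each gene on array 1 and array 2 (both log scale), coloured by band, with the line of equal signal. Points hug the line in the strong and moderate bands and form a broad cloud near background, where the median probe set differed 2.10-fold.

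The label of a thyroid follicular cell held for its markers. Thyroglobulin (Tg), the precursor protein of thyroid hormone, gave 12335 and 13477 on arrays 1 and 2. Its second probe set, at 5751 and 6852, was strong too. Nkx2-1, the homeobox factor of thyroid and lung, gave 7529 and 9722. Pax8, a paired-box factor that binds the Tg and symporter regulatory regions, gave 6881 and 7661, and Foxe1, a forkhead factor of thyroid development, gave 6874 and 6908. Hhex, a homeobox factor of thyroid, liver and pancreas, gave 10396 and 11334. All were strong on both arrays and on each of the 6 other arrays. The symporter gene Slc5a5 gave 2819 and 2928, strong on both arrays and on 3 of the 6 others.

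Of the 10 transcription factors listed for the thyroid, 7 were measured, 4 of them strong (57.1%, against 17.0% of all genes). The moderate ones were Eya1, a coactivator of pharyngeal development, at 192 and 223, and the cardiac and early pharyngeal factor Nkx2-5, at 74.7 and 131. Foxa2, a forkhead factor of foregut endoderm, was near background at 3.97 and 29.5. The factors that define the cell type were thus strong, and the endodermal factor gave little signal. How mature the cells were was not tested.

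The machinery of hormone synthesis was spread over all bands, much as all genes were. Of 25 listed genes, 19 were measured, with 4 strong, 9 moderate and 6 near background. These were 21.1%, 47.4% and 31.6%, close to the 17.0%, 53.3% and 29.7% of all genes. The other listed genes, among them Duox1, Duoxa2, Slc26a7 and Slc5a8, were not analysed here. Thioredoxin (Txn1), a general redox protein, gave 14384 and 16734, and thioredoxin reductase (Txnrd1) gave 3192 and 2507. Neither is particular to the thyroid. The other genes of this list in the strong band were Tg and Slc5a5. With the strong band at the highest 5% of probe sets, 2 genes of the list were strong, Txn1 and Tg, and Slc5a5 was not.

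Genes for peroxide supply and iodide efflux fell lower. Duox2, the oxidase that makes hydrogen peroxide for iodination, gave 1479.5 and 1313, under the strong edge. Duoxa1, a maturation factor of the DUOX1 oxidase, was near background at 50.3 and 6.77, and its arrays differed widely. Ano1, a chloride channel that also passes iodide, gave 890.2 and 1029. The other listed efflux proteins were near background: pendrin (Slc26a4) gave 46.6 and 38.9 and the chloride channel Cftr gave 77.3 and 14.98. The potassium channel pair that aids iodide uptake divided, with the subunit Kcne2 at 88.0 and 66.7, on either side of the moderate edge, and Kcnq1 at 3.93 and 18.8.

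Genes for iodide recycling, hormone conversion and thyroglobulin handling were moderate or low. Iyd, which frees iodide from iodotyrosines, gave 72.1 and 116. The deiodinase Dio1 gave 436 and 301, and Dio2, the other activating deiodinase, gave 4.94 and 49.1. Lrp2 (megalin), an endocytic receptor that binds thyroglobulin, gave 114 and 118, and the asialoglycoprotein receptor Asgr1 gave 117 and 119. Of the transporters, the sodium-dependent vitamin carrier Slc5a6 gave 1147 and 1164, and Slc16a10, an aromatic amino acid carrier, gave 15.3 and 9.15. Lrp2, Asgr1 and Slc5a6 gave nearly equal values on the arrays, whereas Dio2 and Kcnq1 differed several-fold between them at low signal.

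**Figure D3:**
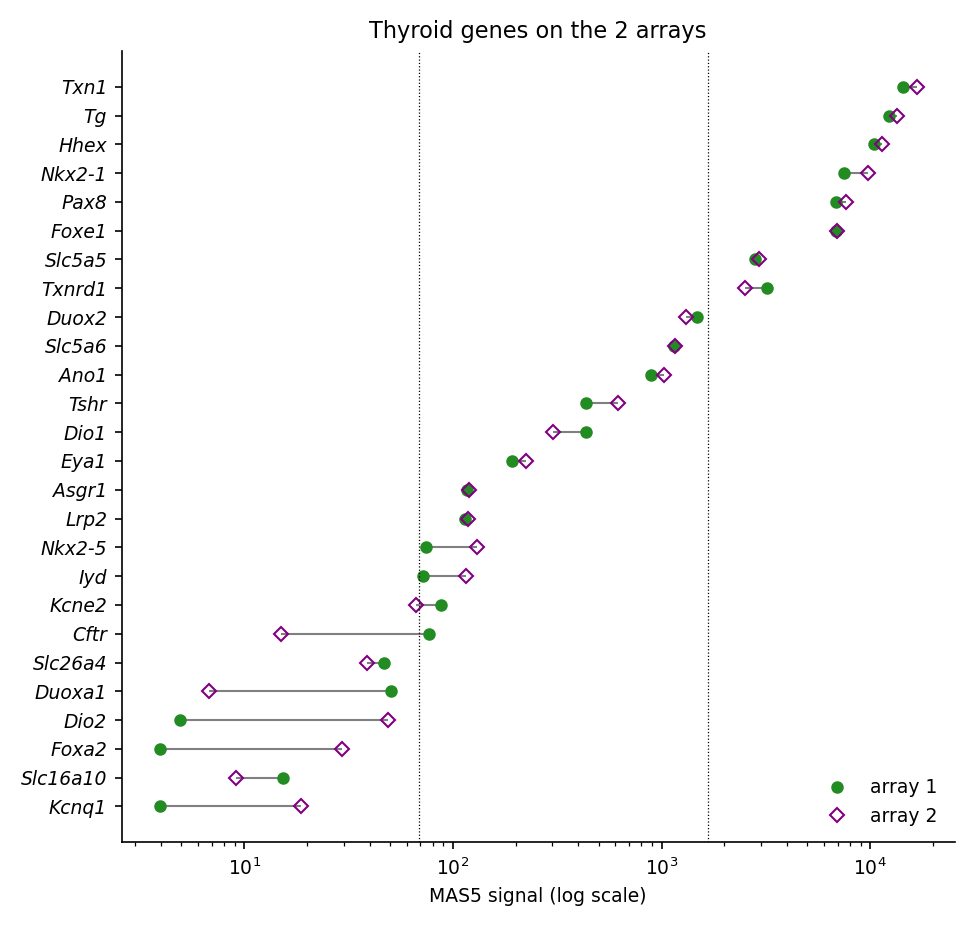
MAS5 signals (log scale) of the 26 measured thyroid genes on array 1 (filled circles) and array 2 (open diamonds), joined by a line, with dotted lines at the moderate and strong edges. The arrays nearly coincide for the strong genes and part for genes such as Cftr, Duoxa1, Dio2 and Foxa2 near background.

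Genes of the TSH signalling path were more often strong than genes at large. The probe set of the rat Tshr gave 433 and 616; it reads the rat gene and was not taken as a measure of the introduced human receptor. Of 27 measured genes of TSH and cAMP signalling, 11 were strong (40.7%, against 17.0% of all genes), 11 moderate and 5 near background. The number strong was 7 when a gene's probe sets were averaged, a setting with 13.6% of all genes strong. It was 5 when the strong band was the highest 5% of probe sets, with 8.5% of all genes strong. Gnas, the stimulatory G protein alpha subunit that couples the receptor to adenylyl cyclase, gave 14428 and 17763, while means of 508 and 149 were read from 2 further probe sets of the gene. The strong call of Gnas rests on a probe set whose ID marks probes shared by several transcripts, and without such sets Gnas was moderate. The G protein beta subunits Gnb1 and Gnb2 gave 8202 and 8488, and 3888 and 4353. Atf1, a cAMP-responsive transcription factor, gave 3993 and 3967.

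Near background on this path were Adcy9 (44.1 and 2.98) and Adcy3 (9.67 and 7.01), both adenylyl cyclases, and the phosphodiesterases Pde3a (32.0 and 41.3) and Pde8b (24.7 and 91.7), which break cyclic nucleotides down. The kinase anchor Akap12 gave 32.1 and 63.1. For Pde8b the arrays lay on either side of the moderate edge.

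Genes of protein synthesis were the most numerous among the highest signals, which is an order of signals and not of RNA amounts. Probe sets with several symbols or none were left out of this order. They were 27 and 15 of the 100 probe sets of highest signal. Among the 30 genes of highest mean signal, with means of 16467 to 22232, 20 encode cytosolic ribosomal proteins and 2 are genes of the mitochondrial genome. All 30 were higher on array 2, by a median of 1.11-fold, and all 30 were strong on each of the 6 other arrays. Rps29, a protein of the small ribosomal subunit, gave 21515 and 22949.9. Ribosomal proteins of the large subunit were next among the ribosomal set, with Rpl26 at 19343 and 20782 and Rpl35a at 18751 and 21330.0. Rpl3, which lies close to the peptidyl transferase centre, gave 18131 and 20265. The other members of this set among the 30 were Rpl19, Rpl5, Rpl11, Rps23, Rps3a, Rpl23, Rps24, Rpl7a, Rps15a, Rpl18, Rpl27a, Rpl21, Rpl12, Rpl27, Rpl41 and Rpl6.

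The remaining genes of the 30 came from several functions. Ctnnb1 (beta-catenin), which joins cadherins to actin and carries Wnt signals, gave 19145 and 21691. COX1 and COX2, cytochrome oxidase subunits encoded in the mitochondrial genome, gave 19343 and 19888, and 16942 and 19871. B2m, the light chain of class I MHC, gave 17900.0 and 20600.3. Eef1a1, the elongation factor that brings aminoacyl-tRNA to the ribosome, gave 17127 and 18762. The chromatin proteins H2az1, a histone variant, Hmgn1 and Hmgn2, which bind nucleosomes, gave 16593 and 19483, 16824 and 18300.1, and 15997 and 17795. Psat1, an enzyme of serine synthesis, gave 16648 and 18714, and Timp3, a matrix-bound inhibitor of metalloproteinases, gave 15019.8 and 17914. Each of these genes was strong on both arrays.

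Of the 42 cytosolic ribosomal proteins measured, 38 were strong (90.5%), 3 moderate and 1 near background. The low ones were Rpl39, Rpl28, Rps13 and, near background, Rpl30 at 20.5 and 105, although each is a core part of the ribosome that every cell uses; the moderate ones were named after their values were seen. Transcripts of ribosomal proteins in mammals are known to begin with a short run of pyrimidines, the terminal oligopyrimidine tract through which their translation is controlled. The starts of the 8 ribosomal protein genes of highest signal that have an entry in the RefSeq promoter table are shown because they let this feature be seen beside the strongest signals. Each line holds 15 bases before the annotated start and 25 from it, 5′ to 3′ on the gene's strand, and capitals mark a C followed by 7 or more C or T that lies between 5 bases before and 15 bases after the start boundary, with the capitals ending where that interval ends.
Rpl26 (chr10:54109677-54109716, plus strand, GRCr8): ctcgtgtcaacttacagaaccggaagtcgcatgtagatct
Rpl35a (chr11:81234997-81235036, minus strand, GRCr8): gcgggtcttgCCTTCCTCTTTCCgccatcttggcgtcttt
Rpl3 (chr7:113507966-113508005, minus strand, GRCr8): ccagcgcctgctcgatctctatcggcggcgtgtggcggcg
Rpl19 (chr10:83519049-83519088, plus strand, GRCr8): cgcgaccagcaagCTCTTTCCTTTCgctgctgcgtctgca
Rpl5 (chr14:1995201-1995240, minus strand, GRCr8): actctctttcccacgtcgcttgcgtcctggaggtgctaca
Rpl11 (chr5:153560778-153560817, minus strand, GRCr8): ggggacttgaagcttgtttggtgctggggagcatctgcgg
Rps23 (chr2:23814502-23814541, plus strand, GRCr8): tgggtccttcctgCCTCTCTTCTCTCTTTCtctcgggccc
Rps3a (chr2:173827018-173827057, minus strand, GRCr8): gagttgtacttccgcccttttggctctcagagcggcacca

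A tract by this definition was found in 3 of the 8 printed windows and in 16 of 35 ribosomal protein genes with an entry (45.7%). Of all 11700 genes with an entry, 4.56% had one, and by band the shares were 4.78% of strong, 4.27% of moderate and 4.99% of near-background genes. A window without capitals says only that these letters were not at the annotated start, and where several starts were listed for a gene the first was used.

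Translation outside the ribosome and the supply of its substrates were strong as well. Of 48 initiation and elongation factors, 36 were strong. Eef1g and Eef1b2, subunits of the exchange factor for Eef1a1, gave 14067 and 14936, and 14879 and 13760.1. Eif4g2, an initiation scaffold, gave 13309.8 and 14839. The 2 near background were Eef1a2 at 12.4 and 93.6 and Eif5a2 at 42.3 and 60.5, which are the tissue-restricted counterparts of Eef1a1 and Eif5a. Aminoacyl-tRNA synthetases were strong in 13 of 17 cases, with Eprs1, which charges glutamate and proline tRNAs, at 5817 and 6289 and Nars1, for asparagine, at 5858 and 5860.4.

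Ribosome assembly and RNA processing followed the same line. Of 14 nucleolar proteins, 7 were strong and 7 moderate, with nucleolin (Ncl) at 8336 and 9829 and Nop10, a part of the pseudouridylation complex, at 7298 and 6945. Splicing factors and hnRNPs were strong in 41 of 61, led by Hnrnpa3 at 13199.5 and 15232 and Snrpe, a core protein of spliceosomal particles, at 11511 and 12091. The 2 near background were Snrpn, an imprinted gene known from brain, at 6.02 and 58.3, and the pseudogene Srsf7-ps4 at 27.8 and 2.67. RNA polymerase II and its general factors were mostly moderate, 46 of 72, with 25 strong. In serine, asparagine and glutamine synthesis 4 of 11 were strong: besides Psat1, Shmt2, the mitochondrial serine hydroxymethyltransferase, gave 5176 and 5199 and Phgdh, the first enzyme of serine synthesis, gave 3604 and 4047, with Aldh18a1, of proline synthesis, at 2026 and 2334. Asparagine synthetase (Asns) was near background at 7.51 and 14.1, and so was Cth, of cysteine synthesis, at 52.5 and 23.6.

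**Figure D4:**
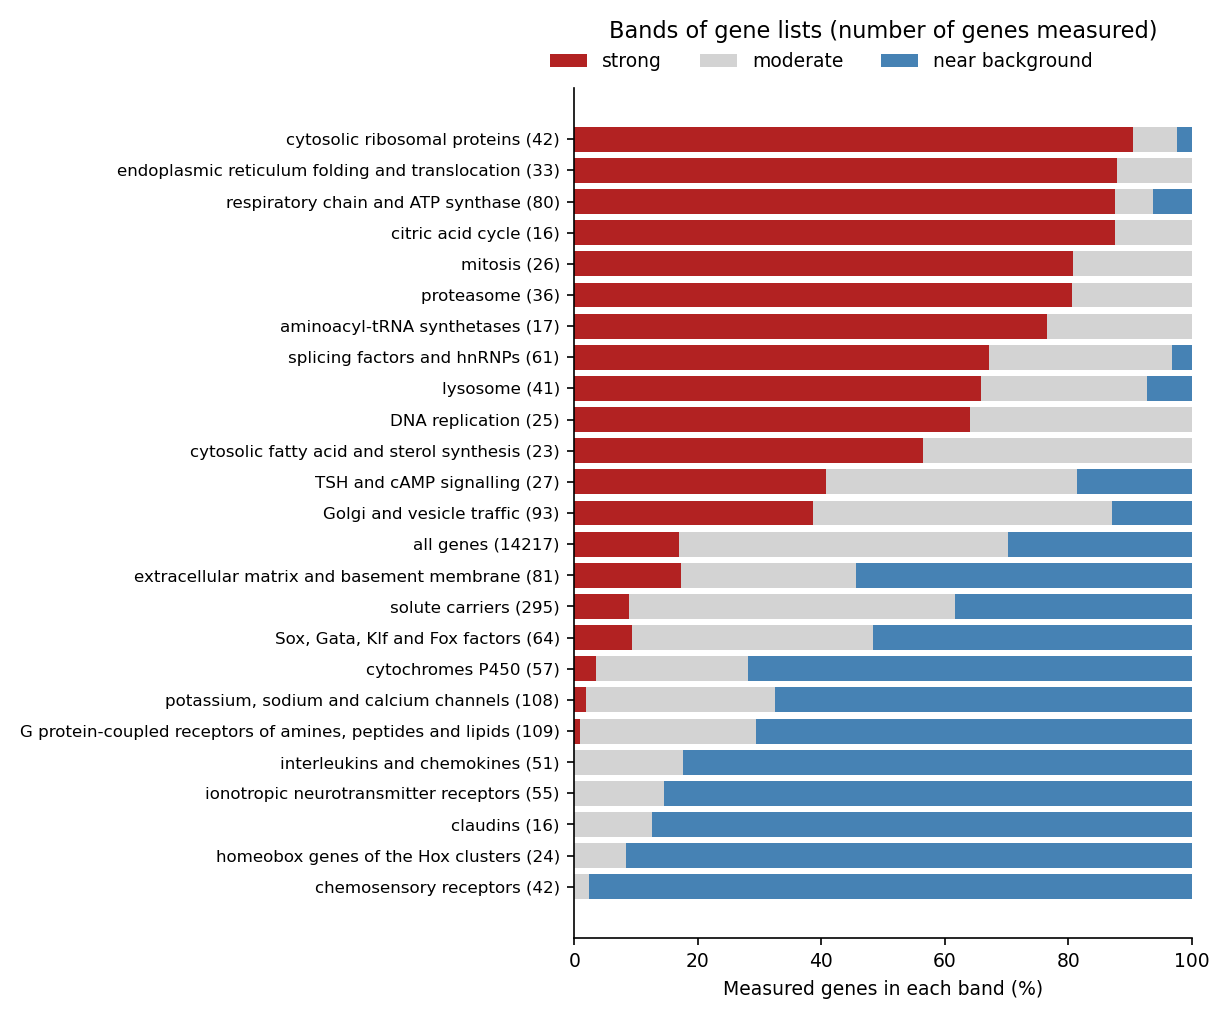
Share of measured genes in each band (percent) for 24 gene lists and for all 14217 genes, with the number measured in parentheses. Lists for protein synthesis, folding, respiration and cell division are mainly strong, lists of ion channels, receptors and Hox genes mainly near background, and 17.0% of all genes are strong.

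Energy metabolism was strong throughout its core. Of 80 subunits of the respiratory chain and ATP synthase encoded in the nucleus, 70 were strong (87.5%), 5 moderate and 5 near background. Atp5f1b, the catalytic beta subunit of ATP synthase, gave 15620.2 and 16486. Cox6c, a subunit of cytochrome oxidase, gave 15042 and 16802, and Ndufa1, an accessory subunit of complex I, gave 13688 and 15678. In the citric acid cycle 14 of 16 were strong and none near background; Idh2, the mitochondrial isocitrate dehydrogenase, gave 9458 and 9135 and Sdha, the flavoprotein of succinate dehydrogenase, gave 7283 and 7861. Of 73 mitochondrial ribosomal proteins 40 were strong and 33 moderate, with Mrpl18 at 8128 and 7294 and Mrps6 at 6860.3 and 7607.

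Cytochrome oxidase isoforms divided by the tissues they are known from. The 5 near-background genes of the respiratory list were all such isoforms. The isoforms of most tissues were strong, Cox4i1 at 14228 and 16254, Cox8a at 12631 and 14744, Cox6b1 at 10684 and 11272 and Cox6a1 at 10553 and 10974, as was Cox7a2l, a relative of the Cox7a isoforms, at 5259 and 4708. Their counterparts were near background. Cox4i2, known from lung, gave 40.2 and 11.6, and Cox6b2, known from testis, gave 9.17 and 6.94. The heart and muscle isoforms Cox6a2, Cox7a1 and Cox8b gave 7.39 and 34.6, 16.2 and 24.8, and 3.81 and 7.79. No value of the second set reached the moderate edge on either array.

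Glycolysis showed a like division in fewer genes. Of 16 measured, 11 were strong, among them aldolase A (Aldoa) at 14266 and 14597, Pgk1, the first ATP-forming enzyme, at 13126 and 14937, lactate dehydrogenase A (Ldha) at 13086 and 13732 and enolase 1 (Eno1) at 10934 and 9886. Aldoc, the brain aldolase, was near background at 27.8 and 6.81. Of 7 measured isoforms of other tissues none was strong: Pfkm, Eno2 and Eno3, known from muscle and brain, gave 817 and 836, 222 and 221, and 195 and 215, and the 4 near background were Pgam2, Ldhc, Pklr and Aldoc. Gapdh could be read only from a probe set that carries 2 symbols, at 17587 and 19710, and was left out of the counts.

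In the secretory pathway, genes of its entry were most often strong. Of 33 genes of folding and translocation in the endoplasmic reticulum, 29 were strong (87.9%) and none was near background. Hsp90b1 (GRP94), the HSP90 chaperone of this compartment, gave 14446 and 15842. Hspa5 (BiP), its HSP70 chaperone and a binding partner of thyroglobulin, gave 11736 and 10175. Ppib, a prolyl isomerase, gave 12193 and 13316, and Pdia6, a disulfide isomerase, gave 9789.6 and 11814. Golgi and vesicle genes were less often strong, 36 of 93, with 12 near background; Rab1a, for transport to the Golgi, gave 10467 and 10285, Rab14, of endosomes and Golgi, 8912 and 10574, and Arf1, which recruits coats, 8494 and 9008.

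The promoter of Hsp90b1 is shown because CCAAT was more often found before the genes of this list than before genes at large, and because CCAAT is the first part of the known endoplasmic reticulum stress element. The stretch runs from 250 bases before the start to 25 from it, at chr7:23012269-23012543 of GRCr8 on the minus strand, and capitals mark CCAAT and its reverse complement ATTGG.
Hsp90b1: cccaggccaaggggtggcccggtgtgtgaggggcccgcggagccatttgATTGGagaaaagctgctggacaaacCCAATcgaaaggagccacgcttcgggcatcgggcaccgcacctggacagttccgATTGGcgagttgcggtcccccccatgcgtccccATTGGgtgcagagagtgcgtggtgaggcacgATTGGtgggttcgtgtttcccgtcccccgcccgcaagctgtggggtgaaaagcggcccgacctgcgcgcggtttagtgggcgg

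The letters CCAAT occurred 5 times there, on either strand. Within 250 bases before and 50 after the start, 75% of 28 genes of the list had CCAAT on at least 1 strand, against 37.3% of all 11700 genes. The share was also 78.3% of 23 mitosis genes, 87.5% of 24 histone and HMG genes and 66.7% of 18 genes of fatty acid and sterol synthesis, and it was 20% of 35 cytosolic ribosomal protein genes. The lists differ in length and base composition, and a match is a description of the letters.

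Protein turnover and the lysosome followed. Of 36 proteasome subunits 29 were strong and none near background, with the core subunits Psma6 at 12877 and 15257 and Psmb4 at 9932 and 10663 and the ATPase Psmc2 at 9074 and 10524. Of 35 cytosolic chaperones and chaperonins 24 were strong, led by Tcp1, a chaperonin subunit, at 12958 and 13711 and the mitochondrial Hspe1 at 10329 and 11069. The 4 near background were Dnajb13, Dnajb3, Dnajb7 and Hspa1l, family members known from testis. Of 41 lysosomal genes, which in the thyroid include the proteases that free hormone from thyroglobulin, 27 were strong. Cathepsin B (Ctsb) gave 9989 and 10192, the proton pump subunits Atp6v1d and Atp6v0c gave 9764 and 10096, and 8566 and 8723, and the cholesterol carrier Npc2 gave 8144 and 9137. Near background were the pump subunits Atp6v1g2 and Atp6v1g3, known from brain and kidney, and Ctsz, at 43.0 and 8.45, 31.8 and 5.69, and 31.9 and 5.98.

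Genes of cell division were mostly in the strong band as defined here. Of 26 mitosis genes 21 were strong and 5 moderate, and of 25 DNA replication genes 16 were strong and 9 moderate, with none near background in either list. With the strong band at the highest 5% of probe sets, 9 mitosis genes and 5 DNA replication genes were strong, which is a minority of each list. Mki67, a marker of cycling cells, gave 7065 and 7176. Stmn1, which destabilises microtubules, gave 12094 and 12622, the checkpoint protein Bub3 gave 5582 and 6229.8, and Prc1, of the central spindle, gave 5448 and 5695. Pcna, the sliding clamp of replication, gave 10787 and 11199; Rrm1, the large subunit of ribonucleotide reductase, gave 4983 and 4218, and the helicase subunits Mcm7 and Mcm6 gave 4755 and 4176, and 3819 and 3921. Array signals give no share of dividing cells.

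Regulators of the cell cycle were more mixed, with 5 of 16 strong, 8 moderate and 3 near background. Cyclin D1 (Ccnd1) gave 7769 and 4087, a 1.90-fold difference that placed it among the 5 strong genes whose arrays differed most. Its partner kinase Cdk4 gave 5089 and 5452. The inhibitors Cdkn1b (p27) and Cdkn1a (p21) were strong too, at 3508 and 2916, and 2731 and 3290.4. Cyclin D2 (Ccnd2) at 21.4 and 75.3, Cdk6 at 38.1 and 26.3 and the imprinted inhibitor Cdkn1c at 9.28 and 41.9 were near background.

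Lipid synthesis, antioxidant defence and iron handling were strong in many members. In fatty acid and sterol synthesis 13 of 23 were strong and none was near background; Fdps and Sqle, of the sterol path, gave 6790.3 and 7303, and 6252 and 7655, Cyp51 gave 5924 and 5548, and Insig1, a sterol sensor partner, gave 5281 and 5674. Of 24 antioxidant and iron genes 15 were strong, with superoxide dismutase 1 (Sod1) at 9428 and 10714, the transferrin receptor (Tfrc) at 9508 and 10337 and peroxiredoxin 2 (Prdx2) at 7838 and 8756. Among the glutathione peroxidases, Gpx4, which protects membrane lipids, gave 7536 and 8341, whereas Gpx1 at 74.9 and 50.1 and the secreted Gpx3 at 11.1 and 34.6 were near background. Catalase (Cat) differed 1.86-fold between the arrays, 2433 and 1309. Of 22 glutathione S-transferases 4 were strong (18.2%, close to the 17.0% of all genes) and 8 near background (36.4%, against 29.7%). The brightest were the microsomal Mgst1 at 12149 and 13101 and Gsta4, which acts on lipid aldehydes, at 3775 and 4043.

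Genes of epithelial keratins and junctions lay in all 3 bands. Of 22 measured, 4 were strong (18.2%, close to the 17.0% of all genes) and 8 moderate. The other 10 were near background (45.5%, against 29.7% of all genes). Besides Ctnnb1, Tjp1 (ZO-1), of tight junctions, gave 7517 and 8508, the catenin Ctnna1 gave 4873 and 4549 and plakoglobin (Jup) gave 3247 and 3408. Krt7, a keratin of simple epithelia, gave 1564 and 1333 and was the brightest keratin of the list. E-cadherin (Cdh1), Epcam, Krt18 and Krt19 were near background, at 38.6 and 5.87, 75.3 and 14.0, 48.7 and 79.1, and 9.74 and 40.2; these 4 are outside the naming rule and were chosen after their values were seen, since simple epithelia are known for them. Cdh16, a cadherin known from thyroid and kidney, gave 123 and 98.1 and Cdh2 (N-cadherin) gave 166 and 248, both moderate and likewise chosen after seeing. Of 16 claudins 14 were near background and none strong, Cldn12 being the brightest at 598 and 822.

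Cytoskeletal genes were strong in 23 of 39. Thymosin beta-4 (Tmsb4x), which sequesters actin monomers, gave 15200.3 and 17198, cytoplasmic gamma-actin (Actg1) gave 15338 and 17012, and the tubulins Tubb4b and Tubb5 gave 14088 and 15612, and 11992 and 12322. The matrix list of 81 had 14 strong (17.3%, close to the 17% of all genes) and 44 near background. Beside Timp3, the inhibitor Timp2 gave 10027 and 9376, the lectin Lgals1 5887 and 5041 and Sparc, a matrix-binding glycoprotein, 4487 and 5246. Of 22 integrins 3 were strong (13.6%, near the 17% of all genes). They were Itga6, Itgb1 and Itga3, which pair as laminin receptors of epithelial cells, at 4956 and 4439, 3812 and 3111, and 2365 and 3235. Annexins and S100 proteins had 6 strong of 24 (25%), led by Anxa5, Anxa1 and Anxa2 at 4778 and 5515, 5133 and 5039, and 3891 and 4666. Of 5 genes of the caveolae coat none was strong, and Cav1, Cav2 and Cavin2 were near background, at 42.8 and 2.45, 1.35 and 17.9, and 7.93 and 5.06.

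Among growth factor systems, strong genes made up 14.3% of the IGF and insulin list, near the 17.0% of all genes. They made up 6.9% of the EGF, FGF and TGF-beta list and 5% of the Wnt and Frizzled list. In the IGF and insulin system 2 of 14 were strong, the binding protein Igfbp7 at 7145 and 7201 and the adaptor Irs2 at 4402 and 4784, while the receptor Igf1r gave 1037 and 1009.9. Irs1, the other main adaptor, was near background at 50.3 and 6.40, as were Igf1 at 10.1 and 27.5 and the binding proteins Igfbp1, Igfbp3 and Igfbp4 at 3.46 and 11.9, 33.0 and 8.89, and 82.0 and 36.5. Among 29 EGF, FGF and TGF-beta ligands and receptors the strong ones were Bmp7, a morphogen of the kidney and eye, at 4642 and 5357 and Fgfr2 at 2967 and 3082. Wnt4, which acts in kidney and gonad development, was the only strong gene of 20 Wnt ligands and Frizzled receptors, at 7889 and 9116, with 14 moderate, of which Fzd6 gave 1058 and 1080.2. The 5 near background were Wnt2, Fzd5, Wnt8b, Wnt16 and Wnt10a.

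Most members of the transcription factor families were moderate or near background, as were most of all genes. The strong share was 31.6% of Id, Hes and Smad genes and 23.1% of interferon response factors and STATs. It was 19.0% of the Fos, Jun, Atf, Egr and Nr4a families, against 17.0% of all genes. Sox, Gata, Klf and Fox factors were strong in 9.38% and nuclear receptors in 3.03%. Of 13 interferon response factors and STATs, Irf8, known mainly from myeloid and B cells, gave 13892 and 15233; Stat2 and Irf1 were the other strong ones, at 2943 and 2717, and 2025 and 2016. In the Fos, Jun, Atf, Egr and Nr4a families, Jund gave 12697 and 12279 and Atf4, the effector of the amino acid and unfolded protein responses, 7617 and 8139, while Atf5 gave 3280.4 and 3071. Fosl2, Egr4, Fosb, Fosl1 and Egr2 were near background. Of 19 Id, Hes and Smad genes, 6 were strong: Id1, which blocks differentiation factors, gave 5893 and 6481, Hes1, a Notch target, 4719 and 5819.8, and Id4 and Id3 3974 and 4888, and 3513 and 3011. Sox, Gata, Klf and Fox factors had 33 of 64 near background, and besides Foxe1 the brightest were Klf10 at 3983 and 3660.1 and Klf2 at 3634 and 3415. Of 33 nuclear receptors the oxysterol receptor Nr1h2 was the only strong one, at 3068 and 3142, and none was strong when probe sets were averaged.

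Antigen presentation genes were mostly moderate, 16 of 20 (80%, against 53.3% of all genes). The 3 strong ones (15%, near the 17.0% of all genes) were B2m and the immunoproteasome subunits Psmb8 at 2476 and 2386 and Psmb9 at 1987 and 1822. The class II invariant chain Cd74 gave 1529.7 and 1500.1, and the class II activator Ciita was near background at 105 and 31.7. Among 23 caspases and Bcl2 family genes Mcl1, which protects from apoptosis, gave 3286 and 3143 and Casp2 gave 2434 and 2511. The other 21 were moderate (16) or near background (5).

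Membrane transport showed a few strong genes in families that were otherwise moderate or low. Of 295 solute carriers 26 were strong (8.81%), 156 moderate and 113 near background. The strongest signals came from mitochondrial carriers: Slc25a3, for phosphate, gave 12927 and 14912, and Slc25a5 and Slc25a4, for ADP and ATP, gave 12214 and 14229.9, and 8139 and 7689. At the plasma membrane the phosphate carrier Slc20a1 gave 6667 and 7587. Of 12 measured subunits of the sodium pump, whose gradient powers iodide uptake, the beta subunits Atp1b1, Atp1b3 and Atp1b2 were strong, at 12341 and 13949.5, 2900.4 and 3396, and 2351 and 3920.0. The alpha 1 subunit had no probe set with a single symbol here.

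Of 108 potassium, sodium and calcium channel genes 2 were strong, 33 moderate and 73 near background (67.6%, against 29.7% of all genes). The strong pair were the inward rectifiers Kcnj16 at 8111 and 8798 and Kcnj15 at 3457 and 3553, and the calcium channel subunit Cacnb3 came next at 744 and 1002. Among 11 aquaporins none was strong; Aqp5 and Aqp4 gave 1456 and 1023, and 729.8 and 677. Of 37 ABC transporters 5 were strong (13.5%, near the 17.0% of all genes), led by the cholesterol exporter Abca1 at 2855 and 2541. Of 57 cytochromes P450 only Cyp20a1 at 3201 and 3467 and Cyp2f4, known from lung, at 2601 and 2739.9 were strong (3.51%).

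Receptor families of other tissues lay mostly near background. Of 109 G protein-coupled receptors of amines, peptides and lipids, 77 were near background and only Lpar1, a receptor of lysophosphatidic acid, was strong, at 1783 and 2091, though not when its probe sets were averaged; the adrenergic receptor Adra1b gave 1482 and 1299.7 and the nucleotide receptor P2ry2 782 and 873. Of 55 ionotropic neurotransmitter receptors 47 were near background and none strong, with the muscle acetylcholine receptor subunit Chrnd the brightest at 1421 and 1300.2. Interleukins and chemokines were near background in 42 of 51, the brightest being Cxcl16 at 1350.2 and 1351 and Cxcl12 at 1164 and 1213. Of 24 Hox genes 22 were near background, with Hoxb13 at 341 and 369 and Hoxb6 at 112 and 124 moderate. Of 42 odour, pheromone and taste receptors 41 were near background and Or6f2, at 119 and 85.1, was moderate.

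The start regions of Slc5a5 and of Or1e31, the near-background chemosensory receptor of highest signal among those with an entry (46.1 and 76.0), are shown as a start rich in CG pairs and a start poor in them; neither is typical of its band. Each runs from 250 bases before the annotated start to 25 from it, Slc5a5 at chr16:18580455-18580729 on the plus strand and Or1e31 at chr10:59045418-59045692 on the minus strand of GRCr8, and capitals mark CG pairs.
Slc5a5: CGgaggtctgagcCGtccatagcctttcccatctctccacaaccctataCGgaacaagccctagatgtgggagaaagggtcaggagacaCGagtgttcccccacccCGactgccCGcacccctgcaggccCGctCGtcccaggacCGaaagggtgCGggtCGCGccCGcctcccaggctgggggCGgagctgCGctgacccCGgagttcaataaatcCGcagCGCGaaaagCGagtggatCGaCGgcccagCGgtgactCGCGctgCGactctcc
Or1e31: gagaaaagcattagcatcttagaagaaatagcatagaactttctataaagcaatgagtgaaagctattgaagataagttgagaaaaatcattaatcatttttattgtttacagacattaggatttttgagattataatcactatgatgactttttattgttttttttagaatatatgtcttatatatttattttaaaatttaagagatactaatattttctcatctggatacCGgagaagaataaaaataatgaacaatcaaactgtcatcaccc

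The Slc5a5 stretch held 26 CG pairs and the Or1e31 stretch 1. Over windows of 300 bases, the median was 23 CG pairs in 2070 strong genes, 21 in 6301 moderate and 9 in 3329 near-background genes, and 2 in 36 chemosensory receptor genes. The median GC content was 61.7%, 61% and 55.7% in the bands and 39.3% in chemosensory genes. GGGCGG, the GC box, lay on either strand in 69.2% of strong, 62.9% of moderate and 40.1% of near-background genes, and TATAAA in 7.005%, 6.21% and 13.6%, against 57.5% and 8.45% of all 11700 genes with an entry. Single genes did not always follow their band. Among strong thyroid genes with an entry, the windows of 300 bases held 42 CG pairs for Hhex, 36 for Txn1 and 29 for Slc5a5. They held 20 for Nkx2-1, 11 for Pax8 and 5 for Txnrd1. Among near-background thyroid genes with an entry they held 26 for Slc16a10, 23 for Duoxa1, 22 for Slc26a4 and 20 for Cftr. Foxa2 and Dio2, with 8 and 4, lay below the median of 9 of their band. In CG pairs and GC boxes the moderate band lay closer to the strong band than to the near-background band.

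**Figure D5:**
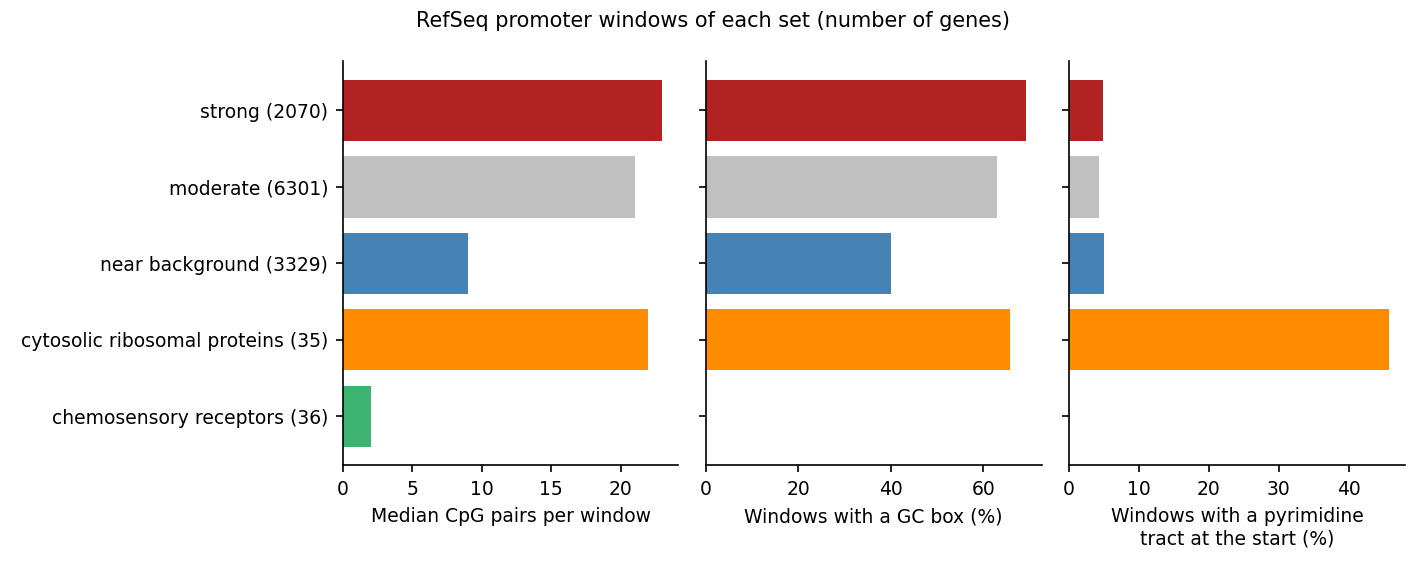
Median number of CpG pairs, percent with a GC box and percent with a pyrimidine tract at the start, in RefSeq promoter windows of 300 bases, for the 3 bands, cytosolic ribosomal proteins and chemosensory receptors, with the number of genes in parentheses. CpG pairs and GC boxes fall from the strong to the near-background band, and the tract stands out in the ribosomal protein genes at 45.7%.

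Markers of other cell types were mainly near background, with exceptions. The near-background share ran from 60% of muscle markers to 85.7% of erythroid markers, against 29.7% of all genes. Of all genes 17.0% were strong. None of 17 leucocyte, 13 fibroblast, 11 endothelial, 15 hepatocyte, 7 erythroid or 11 testis markers was strong, and 12, 10, 7, 11, 6 and 9 of them, in that order, were near background. The brightest of each were the leucocyte surface protein Cd48 at 1407 and 1229, the collagen gene Col5a1 at 1030.3 and 1076, Vwf at 259 and 137, the fibrinogen gene Fgg at 395 and 371, the anion exchanger Slc4a1 at 649 and 612 and the protamine gene Prm2 at 344 and 403. Of 17 neuron markers 14 were near background and Nefh, the heavy neurofilament, was strong at 2525 and 2854. Of 15 muscle markers 2 were strong (13.3%, near the 17.0% of all genes). They were Myh1, a fast myosin heavy chain, and Tnnt2, cardiac troponin T, at 7892 and 8633, and 7134 and 7386. All 5 probe sets of Myh1 were strong, with means from 3982 to 8263, whereas the second probe set of Tnnt2 had a mean of 24.9. The remaining muscle markers were moderate (4) or near background (9), with the cardiac troponin gene Tnni3 at 466 and 325 and desmin (Des), the muscle intermediate filament, at 121 and 98.0.

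Thyroid C cells are the neighbours of follicular cells in the gland. Of 15 C cell and neuroendocrine markers 10 were near background (66.7%, against 29.7% of all genes). Among them were calcitonin (Calca) at 27.0 and 50.03 and chromogranin A (Chga) at 2.59 and 5.66, both named after seeing the values because they define that cell. The 2 strong ones (13.3%, near the 17.0% of all genes) were Cpe, a carboxypeptidase of hormone processing, at 7048 and 8051 and Gcg, which encodes glucagon and related peptides, at 2809 and 2835. Chgb and Ret were moderate, at 242 and 202, and 143 and 135. Of 25 crystallins, hair keratins and milk and lens proteins, the only strong gene was Cryab, a small heat shock protein of lens and muscle, at 5219.7 and 5473.

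Most strong genes were in none of these lists. The 68 lists together held 674 of the 2419 strong genes (27.9%). Of the others, chosen after their values were seen, App, the amyloid precursor protein, gave 14697 and 15869.9, the tetraspanin Cd81 gave 13308 and 16215 and Sdc2, a heparan sulfate proteoglycan, gave 13157 and 16094. Vimentin (Vim), the intermediate filament of mesenchymal and many cultured cells, gave 7832 and 10619. Lbp, the lipopolysaccharide binding protein made by liver, gave 9868 and 10021, and the apolipoprotein gene Apoc1 gave 9137 and 9229. Rap1gap, which switches off the small G protein RAP1, gave 8769 and 9839.9. Each was strong on both arrays.

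Unnamed probe sets were less common at the top. Of 3104 strong probe sets, 300 (9.66%) had no gene symbol and 146 carried several, while 26.3% of moderate and 43.4% of near-background probe sets had none. Among the 100 probe sets of highest signal, 58 had 1 symbol, 27 several and 15 none. Of 936 strong genes with several probe sets, 180 (19.2%) had another probe set near background, and the median ratio of the brightest to the dimmest was 9.23. Ctnnb1 is an example, with 4 probe sets whose means were 20418, 15008, 943 and 17.4.

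The edges of the bands cut through continuous values. Just inside the strong band lay Lims1 (mean 1680), Mdm2 (1680) and Clasp1 (1679), and just outside it Atic, Ttyh3 and Mrps26 (all 1678). Just inside the moderate band were Exoc3l1 (69.2), Tcim (69.1) and Lenep (68.99), and just outside it Inpp4b (68.96), Asxl3 (68.9) and Sdr42e1 (68.9). The strong genes whose arrays differed most were Ckap4, an anchor of the endoplasmic reticulum, at 2182 and 4625 (2.12-fold), and Dtl, a ubiquitin ligase part, at 2711 and 1304 (2.08-fold), followed by Ccnd1, Tmbim4 at 2693 and 1431 (1.88-fold) and Cat.

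Bands were largely kept on the 6 arrays of the other groups when each array was ranked on its own. Of the 2419 strong genes 1939 (80.2%) were strong on all 6, and 24 were strong on none of them. Of the 4227 near-background genes 2571 (60.8%) were near background on all 6. No strong gene was near background on any of the 6 and no near-background gene was strong on any. These arrays come from the same sub-clone with another receptor or salt, so they share most of what sets the profile.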

How the data were processed

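Per the labels' protocols, biotin-labelled cRNA was made from total RNA and read on Affymetrix arrays in 1 colour. The deposited values are linear-scale intensities; per the submitters' processing notes, the authors used MAS5 to make them. For MAS5, the version and the scaling target were not given in the sources used here, and detection calls were not used. The precision is limited by the number of arrays, which is 2. Symbols came from GEO's platform annotation, updated by gene ID to the RefSeq table of GRCr8: of the ranked probe sets 20826 had 1 symbol, 436 several and 9780 none.

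No values were rescaled and no test was run. Bands, counts and ratios were computed with pandas 2.3.3 and numpy 2.4.6 in Python 3.11.15. The banding and the ratio between arrays were run on simulated levels without noise, where the outcome was set by construction. Gene and list counts were not checked in this way. The members and lists were chosen with earlier results of these data known: 49 lists were written first, their patterns were then edited to drop genes outside the family, and 19 lists were added after values were seen, so no list is independent evidence. The genes named are the 30 of highest mean signal, all measured thyroid genes, up to 4 of highest signal in each list described (with members near background where 5 or fewer), those at the band edges, and the 5 strong genes whose arrays differ most; others are said to be chosen later. The alternatives were each array alone, other means, other probe set rules and other edges.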

Additional observations from a re-analysis of the deposited data

How the results depend on the processing

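The number of strong genes, 2419, was 2406 to 2431 with either array alone, 2420 with the geometric mean of the signals, 2429 with the lower signal and 2401 without probe sets whose IDs mark shared or cross-hybridising probes. Averaging the probe sets of a gene, in place of taking the brightest, gave 1937. The edge set it most: the highest 5% of probe sets gave 1208 strong genes and the highest 20% gave 4621. The number near background, 4227, was 4146 to 4212 with either array alone and 3134 or 5132 with the lowest 30% or 50% of probe sets. It was 4000 with the edge at the 95th percentile of chemosensory receptor probe sets (61.02) and 3249 with the edge at the highest bacterial control (43.1), an edge chosen after seeing the data. List members in the strong band numbered 674, 664 to 671 with either array alone, and 465 or 930 with the highest 5% or 20%. Single lists depended on the setting more than the total. Of 68 lists, the number strong moved by over 1.5 times in 8 when probe sets were averaged, 21 at the 5% edge and 28 at the 20% edge, and in none with either array alone. On averaging, Sox, Gata, Klf and Fox factors went from 6 to 2 strong, and nuclear receptors and G protein-coupled receptors from 1 to 0. TSH and cAMP signalling went from 11 to 7, D-type cyclins and inhibitors and ABC transporters each from 5 to 3, and growth factor genes and caspases with the Bcl2 family each from 2 to 1. Mitochondrial ribosomal proteins went from 40 to 18 at the 5% edge and 67 at the 20% edge. The number of list members near background was 820, 791 to 813 with either array alone. By the same measure the number near background moved in 4 of 68 lists with either array alone. Some genes named as near background had arrays on either side of the moderate edge, among them Ciita, Rpl30, Eef1a2 and Igfbp4. No comparison between groups was made, so no paired analysis was run.

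Limits: 2 arrays of 1 line without a known culture origin, no detection calls, and probe sets that read only part of a transcript. Signal near background differed 2.10-fold between the arrays in the median, so the order of low genes is not resolved.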

Other observations

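Some genes known from other tissues had strong signals on both arrays: Irf8 (13892 and 15233), Wnt4 (7889 and 9116), Kcnj16 (8111 and 8798), Myh1 (7892 and 8633), Cryab (5220 and 5473) and Gcg (2809 and 2835). Each was chosen after its values were seen, and the data give no protein or cell-by-cell measure of them.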
